A study of Mus musculus with 2 samples.

Results

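Il1rl1, Areg, Gata3, Klrg1, Rora and Gna15 are 6 genes associated with regulatory T cells (Tregs) that act in tissue repair, chosen by name from the 27998 genes of the count tables and described here in T cells from the pancreatic islets of NOD mice, a strain that develops autoimmune diabetes. The choice was made with earlier results of these data known. The wild type was NOD.Foxp3-EGFP, and the comparison strain was NOD.Tnfrsf9-/-.Foxp3-EGFP, in which Tnfrsf9, the gene of the costimulatory receptor CD137, is deleted in every cell, each with 1 droplet single-cell RNA library. Both groups carry the Foxp3 reporter and were untreated, each library pooled 6 females of 9 to 10 weeks, and sorted CD8 T cells and GFP+ Tregs were sequenced together. Pooling leaves 1 library per genotype, so every comparison of genotypes below is between 2 libraries, has no replicate and carries no p-value, and its 95% interval covers counting error only.

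Tissue-repair Tregs were described in fat, muscle, lung and skin as Foxp3+ cells that respond to the alarmin IL-33, which is released by damaged cells, through the receptor ST2, encoded by Il1rl1. Their best known product is amphiregulin, encoded by Areg, a ligand of the epidermal growth factor receptor that acts on epithelial and stromal cells. GATA3 is the transcription factor of type 2 immunity and acts on Il1rl1 in T cells, RORα is a nuclear receptor of skin Tregs and type 2 innate lymphoid cells, KLRG1 is an inhibitory receptor for cadherins found on terminally differentiated lymphocytes, and Gna15 encodes a Gq class G protein subunit of blood cells.

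Il1rl1 has a pair of annotated transcription starts, and the 300 bases around each (250 before the start and 50 from it on, RefSeq sequence, GRCm38.p6) are shown because Gata3 and Rora, both members, encode factors that bind the letters searched for. Capitals mark AGATAA or TGATAA, bound by GATA factors, and AGGTCA, bound by ROR factors, each searched on both strands, and the motifs do not overlap here. The start at the outer end of the gene lies in chr1:40429320-40429619 (plus strand), the inner one in chr1:40439379-40439678 (plus strand).
Il1rl1 outer start: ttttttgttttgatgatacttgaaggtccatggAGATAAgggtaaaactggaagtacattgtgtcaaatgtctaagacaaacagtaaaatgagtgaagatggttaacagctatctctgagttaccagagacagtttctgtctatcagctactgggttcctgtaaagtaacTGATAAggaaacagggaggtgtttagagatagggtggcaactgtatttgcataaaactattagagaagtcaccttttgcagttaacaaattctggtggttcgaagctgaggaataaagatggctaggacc
Il1rl1 inner start: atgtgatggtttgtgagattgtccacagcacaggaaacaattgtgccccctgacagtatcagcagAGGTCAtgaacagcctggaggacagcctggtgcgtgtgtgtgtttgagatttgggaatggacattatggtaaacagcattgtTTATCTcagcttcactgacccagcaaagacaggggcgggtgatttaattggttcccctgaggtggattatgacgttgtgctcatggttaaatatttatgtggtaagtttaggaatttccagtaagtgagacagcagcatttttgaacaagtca
The outer window held GATA letters 217 and 80 bases upstream of the start, and the inner window held them 103 bases upstream, beside AGGTCA 185 bases upstream. GATA letters stood in 18.6% of all 32851 RefSeq windows of this length and AGGTCA in 16.3%, so a match is common and describes letters only. The windows of Areg, Gata3, Rora and Gna15 held neither motif, and Klrg1 was not in the promoter table. In GENCODE vM21 on GRCm38, Il1rl1 lies on chromosome 1 (40429570 to 40465415), Areg on chromosome 5 (91139599 to 91148432), Gata3 on chromosome 2 (9857078 to 9890034), Klrg1 on chromosome 6 (122270596 to 122282882), Rora on chromosome 9 (68653786 to 69388246) and Gna15 on chromosome 10 (81502306 to 81524225). Il1rl1, Areg and Rora are on the plus strand and the others on the minus strand. Gata3 overlaps 1 other annotated gene on its own strand, 9230102O04Rik, so part of its count could not be assigned to it alone.

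The libraries held 2804 wild-type and 2991 Tnfrsf9-/- barcodes with 19904506 and 19639995 unique molecular identifiers (UMIs, each 1 captured transcript), and 16 barcode sequences occurred in both. After cells outside 200 to 5000 genes or over 20% mitochondrial UMIs were removed, 2714 and 2915 cells were left. A Treg was a cell with no Cd8a or Cd8b1 UMI and at least 1 UMI of Cd4, Foxp3, Il2ra or Ikzf2 (1552 wild-type and 1444 Tnfrsf9-/- cells, median 4302 and 4308.5 UMIs), and a CD8 T cell had at least 2 Cd8a or Cd8b1 UMIs and none of Cd4 or Foxp3 (891 and 1200 cells, median 6076 and 5275 UMIs). Tnfrsf9, the targeted gene, fell from 337 to 110 counts per 1000000 UMIs of the class (CPM) in Tregs and from 106.5 to 32.0 CPM in CD8 T cells, so its transcripts were still counted in the knockout. The deleted part of the gene is not given in the sources used here, and 3′ counts outside it would not check the label. Foxp3 had a UMI in 13.2% of Tregs of the wild type and 19.5% of those of the knockout, at 26.4 and 41.2 CPM, a shift whose part in the ratios below was not tested. Ikzf2, a gene of the Treg rule, also had a UMI in 40.3% of wild-type and 28.1% of Tnfrsf9-/- CD8 T cells. A CD8 T cell in which no Cd8a or Cd8b1 UMI was captured could therefore be classed as a Treg, and how often was not tested. In each class and library 99.1% to 99.3% of the cells carried at least 2 of the T cell genes Cd3d, Cd3e, Cd3g and Lck (Trac was not analysed here). Il5 and Il13, which define type 2 innate lymphoid cells, and Gata2, Fcer1a, Ms4a2 and Mcpt8 of mast cells and basophils, all cells that also use Il1rl1, had no UMI in the Tregs of either library. The whole list of 6 innate lymphoid genes summed to 2.36 and 1.84 CPM in Tregs and to 0 UMIs in Tregs with an Il1rl1 UMI, and that of 7 mast cell and basophil genes to 1.46 and 1.23 CPM, with 0 and 2 UMIs in Tregs with an Il1rl1 UMI.

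By CPM, which in 3′ libraries are not scaled by gene length, Rora was the most abundant of the 6 genes in Tregs and Il1rl1 the least, and each of the 6 was higher in Tregs than in CD8 T cells of the same library. Il1rl1, the IL-33 receptor, had a UMI in 4.90% of wild-type Tregs (95% interval 3.88 to 6.09, Clopper-Pearson) and 7.41% of Tnfrsf9-/- Tregs (6.11 to 8.88). In CD8 T cells, in which it is not a usual product, its shares were 0.337% and 0.583%. Areg had a UMI in 11.3% and 9.28% of Tregs, against 0.449% and 0.667% of CD8 T cells. Both genes were therefore rare in Tregs but rarer still in the class taken as background, although the CD8 T cells were the deeper cells. For Gata3 the Treg shares were 36.5% and 34.8%, against 19.4% and 16.6% in CD8 T cells. Klrg1 had a UMI in 5.35% and 5.12% of Tregs, but in CD8 T cells its share was 3.93% in the wild-type library and 0.25% in the other. The shares of Rora were 48.1% and 47.2% in Tregs against 35.2% and 28.3% in CD8 T cells. The shares of Gna15 were 16.8% and 13.6% in Tregs against 12.3% and 10.9% in CD8 T cells. Gata3, Rora and Gna15 were thus detected in over 10% of both classes, while Il1rl1 and Areg were under 1% in CD8 T cells of both libraries.

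**Figure D1:**
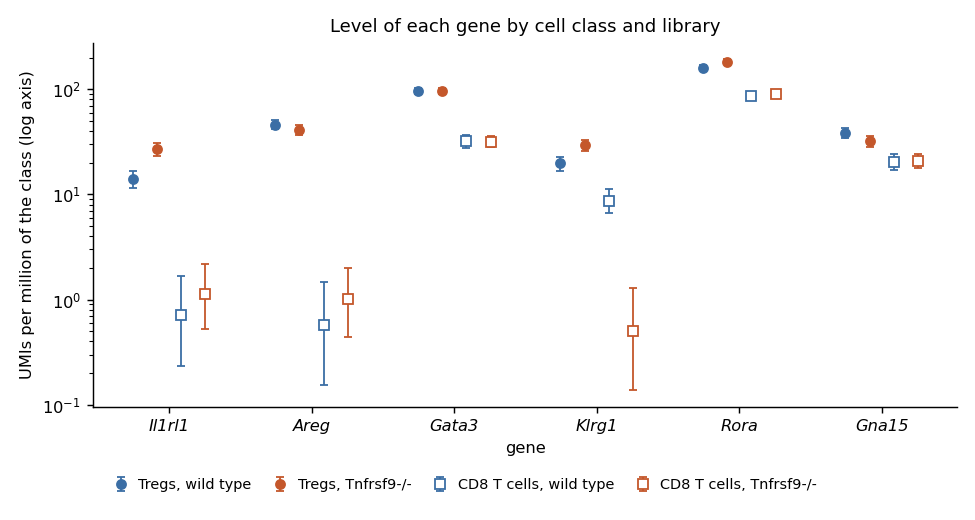
Level of each gene in CPM of its class (log axis) in Tregs (filled circles) and CD8 T cells (open squares) of the wild-type (blue) and Tnfrsf9-/- (orange) library, with 95% exact Poisson intervals. Il1rl1 and Areg lie above 10 CPM in Tregs and near 1 CPM in CD8 T cells, and Klrg1 in CD8 T cells is split between the libraries at 8.70 and 0.506 CPM.

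Detection was thin within single cells. Of the 76 wild-type and 107 Tnfrsf9-/- Tregs with an Il1rl1 UMI, 45 and 50 had exactly 1, and the highest cell had 6 and 9. When every cell was thinned to 2000 UMIs, leaving out 76 and 55 shallower Tregs, Il1rl1 was found in 2.51% and 3.89% of Tregs, Areg in 6.71% and 4.54%, Gata3 in 18.4% and 16.8%, Klrg1 in 2.85% and 3.17%, Rora in 28.0% and 27.0%, and Gna15 in 7.05% and 5.33%. The share of each of the 6 genes dropped with depth. In both libraries the shares fell in the order Rora, Gata3, Gna15 and Areg. Klrg1 and Il1rl1 came last, with overlapping intervals in the wild type (4.28% to 6.59% and 3.88% to 6.09%), and in the knockout the interval of Il1rl1 overlapped that of Areg (7.83% to 10.9%).

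The difference between Tregs and CD8 T cells was tested on 4 class sums with edgeR's quasi-likelihood test and the library as a block. All 6 genes were called higher in Tregs (Benjamini-Hochberg adjusted p under 0.05), where 11.5% of the 11506 genes tested were called higher and 8.35% lower. They were chosen with earlier results of these data known, so the calls are not independent of that choice. Areg had the widest gap, with a log2 difference of 5.61 (SE 0.263, adjusted p = 7.61e-07, edgeR), and its levels were 46.0 and 41.2 CPM in Tregs against 0.570 and 1.01 CPM in CD8 T cells. Il1rl1 followed with 4.31 (SE 0.288, adjusted p = 7.54e-06, edgeR), from 13.9 and 26.9 CPM against 0.713 and 1.14 CPM. The transcription factors differed less. Gata3 was higher by 1.47 (adjusted p = 2.43e-05, edgeR), at 96.7 and 96.3 CPM against 31.9 in both CD8 sums, and Rora by 0.83 (adjusted p = 0.000592, edgeR), at 160 and 184 CPM against 85.5 and 90.7 CPM. For Gna15 the log2 difference was 0.64 (adjusted p = 0.0155, edgeR), at 38.6 and 32.1 CPM against 20.4 and 21.0 CPM. For Klrg1 it was 2.42 (SE 0.613, adjusted p = 0.0209, edgeR), but the libraries differed: 19.7 against 8.70 CPM in the wild type and 29.3 against 0.506 CPM in the knockout. The calls of Klrg1 and Gna15 were lost in DESeq2 (adjusted p = 0.291 and 0.249) and in edgeR without the block (adjusted p = 0.105 and 0.0826), while those of the other 4 genes held in both. The test rests on 2 pools of different genotype and 1 residual degree of freedom per gene, with the spread borrowed across genes.

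Between the genotypes, Il1rl1 was the only 1 of the 6 genes past 1.5-fold in Tregs. It rose from 124 UMIs in 1552 wild-type Tregs to 219 UMIs in 1444 Tnfrsf9-/- Tregs, 13.9 to 26.9 CPM, a ratio of 1.93 (95% interval 1.54 to 2.42). Its share of positive cells was higher by 2.51 percentage points (0.794 to 4.27, Newcombe interval), and by 1.38 points (0.0901 to 2.72) in thinned cells. The ratio of 1.5 was reached or passed upward by 6.93% of the 11428 genes with at least 20 UMIs in Tregs and downward by 3.62%. Klrg1 lay just inside it at 1.49 (1.22 to 1.82), with 19.7 and 29.3 CPM, although its share of positive Tregs differed by only -0.223 points (-1.83 to 1.39). A Klrg1-positive Treg held 2.11 UMIs of it on average in wild-type and 3.23 in Tnfrsf9-/- mice. The median was 1 UMI in both, and the 10 highest cells held 38.9% and 41.4% of the Klrg1 UMIs. Rora stood at 1.15 (1.07 to 1.24), Gata3 at 0.995 (0.902 to 1.10), Areg at 0.896 (0.773 to 1.04) and Gna15 at 0.833 (0.706 to 0.981). The intervals of Gata3 and Areg held 1, that of Rora lay above it and that of Gna15 below it. Fewer cells that express a gene and less RNA of it per cell cannot be told apart in such sums. The share of Areg-positive Tregs differed by -2.06 points (-4.24 to 0.126), and by -2.17 points (-3.87 to -0.479) in thinned cells. That of Gna15 differed by -3.11 points (-5.67 to -0.533), and by -1.72 points (-3.49 to 0.0554) in thinned cells. Over all cells Gata3 differed by -1.77 points (-5.19 to 1.66) and Rora by -0.837 points (-4.41 to 2.74).

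Several of these ratios moved when cycling cells were left out. Cells with at least 2 UMIs of Mki67, Top2a, Birc5, Cdk1 and Ube2c made up 13.2% of wild-type and 15.6% of Tnfrsf9-/- Tregs, with medians of 11831 and 10558 UMIs, so they carry more of a summed count than their number. Without them the Il1rl1 ratio was 1.55 (1.21 to 1.995) and still past 1.5. Klrg1 fell to 1.11 (0.874 to 1.41), and Areg, with a summed ratio of 0.896 over all Tregs, fell to 0.650 (0.544 to 0.776), from 55.2 to 35.9 CPM. When every Treg was given the same weight, with cycling cells kept, Areg was likewise lower in the knockout at 0.753, and Klrg1 stood at 1.13. The parts of depth and of cycling in these shifts were not tested. With Tregs defined by a Foxp3 UMI (205 wild-type and 281 Tnfrsf9-/- cells), Il1rl1 gave 1.81 (1.18 to 2.82), and Gna15 was past 1.5-fold downward at 0.642 (0.448 to 0.917). Of the 6 genes only Il1rl1 was therefore past 1.5-fold upward in each of these readings. Its ratio was also read in Tregs divided by marker UMIs in thinned cells. With a UMI of Lag3, Itgae or Cxcr6 it was 3.68 (1.95 to 7.36), and without 1.14 (0.706 to 1.87). With a UMI of Cd83, Tbc1d4 or Nt5e it was 1.27 (0.591 to 2.79), and without 2.14 (1.38 to 3.38). With a Tnfrsf9 UMI it was 3.11 (1.46 to 6.86, 13 against 19 UMIs), and without 1.60 (1.03 to 2.51). Tnfrsf9, the targeted gene, had a UMI in 33.3% of thinned wild-type and 16.6% of thinned Tnfrsf9-/- Tregs, so its groups may hold unlike cells. The intervals with and without the marker overlap except for Lag3, Itgae or Cxcr6. These differences were not tested.

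In CD8 T cells the genotype ratio of Klrg1 went the other way. It dropped from 61 UMIs in 35 of 891 wild-type cells to 4 UMIs in 3 of 1200 Tnfrsf9-/- cells, a ratio of 0.0582 (0.0154 to 0.157). Among the 11083 genes with at least 20 UMIs in CD8 T cells, 8.2% were 1.5-fold or more lower and 13.7% higher, and Klrg1 was the only 1 of the 4 members with enough UMIs that was past it. Gata3, Rora and Gna15 had CD8 ratios of 0.998 (0.830 to 1.20), 1.06 (0.9497 to 1.18) and 1.03 (0.818 to 1.30), and Il1rl1 and Areg had too few UMIs for a ratio (5 and 9, 4 and 8). The cycling share of CD8 T cells was 24.5% in the first library and 11% in the second. Without them Klrg1 stayed low at 0.0299 (0.000726 to 0.185) with 22 against 1 UMIs, and Gata3 gave 0.920 (0.735 to 1.16), Rora 0.895 (0.777 to 1.03) and Gna15 0.943 (0.704 to 1.27). The intervals of these 3 genes held 1 in both readings, and other cell states within the class were not matched between the libraries.

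**Figure D2:**
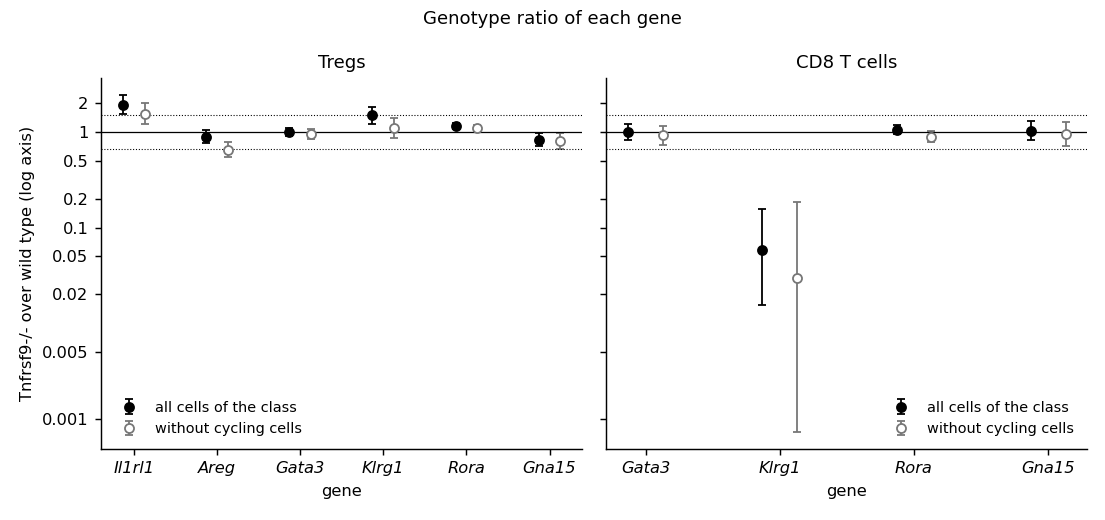
Tnfrsf9-/- over wild-type ratio of each gene (log axis) in Tregs and CD8 T cells, with 95% exact conditional intervals and dotted lines at 1.5-fold in each direction. Filled circles are all cells of the class and open circles leave out cycling cells. Il1rl1 is above 1.5-fold in both Treg readings, and Klrg1 in CD8 T cells lies far below at 0.0582 and 0.0299.

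The 5 other genes were all higher in Tregs that carried an Il1rl1 UMI. These were 76 wild-type and 107 Tnfrsf9-/- cells, with median UMIs of 4731.5 and 4888 against 4280 and 4248 in the other Tregs. In edgeR with the library as a block, all 5 passed an adjusted p of 0.05, where 2.44% of the 10471 other genes tested were called higher and 1.81% lower. The genes were chosen with earlier results of these data known, so the share called is no independent support for them as a set. Klrg1 led with a log2 difference of 3.796 (SE 0.183), followed by Areg at 1.70 (SE 0.183), Gna15 at 1.63 (SE 0.198), Rora at 1.14 (SE 0.118) and Gata3 at 1.01 (SE 0.145). The highest of the 5 adjusted p-values was 9.84e-10 (edgeR). Such values come from cells divided within 2 libraries, with 1 residual degree of freedom per gene, and measure little beyond counting error. Without the block the adjusted p-values were 3.12e-07 for Klrg1, 0.00399 for Rora, 0.00488 for Gna15, 0.0125 for Areg and 0.0240 for Gata3 (edgeR). When cells were thinned to 2000 UMIs before they were divided, Klrg1, Rora and Gata3 kept the call, while Gna15 (log2 1.60, adjusted p = 0.0694, edgeR) and Areg (1.08, adjusted p = 0.437, edgeR) lost it.

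Klrg1 stood at 128 CPM in Il1rl1-positive against 14.0 CPM in Il1rl1-negative wild-type Tregs, and at 231 against 11.9 CPM in the knockout. Gna15 stood at 122 against 34.2 CPM and at 77.1 against 28.3 CPM. Rora was at 304 against 152 CPM and 399 against 165 CPM, and Gata3 at 212 against 90.7 CPM and 162 against 90.6 CPM. In these 4 genes the intervals of the positive and negative cells did not overlap in either library. Areg was the exception: 72.0 against 44.6 CPM in the wild type, a ratio of 1.61 (1.09 to 2.32), and 162 against 30.8 CPM in the knockout, a ratio of 5.26 (4.14 to 6.65). Without the 2 cells of each group with the most Areg UMIs, which an alternative added after seeing the data left out, the wild-type ratio was 0.909 (0.514 to 1.497), an interval that holds 1, and the Tnfrsf9-/- ratio stood at 3.43 (2.54 to 4.57). This lowers the ratio by construction, since the wild-type positive group had 11 cells with an Areg UMI and the negative group 165, and 16 of the 32 Areg UMIs of the positive group lay in its 2 highest cells.

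**Figure D3:**
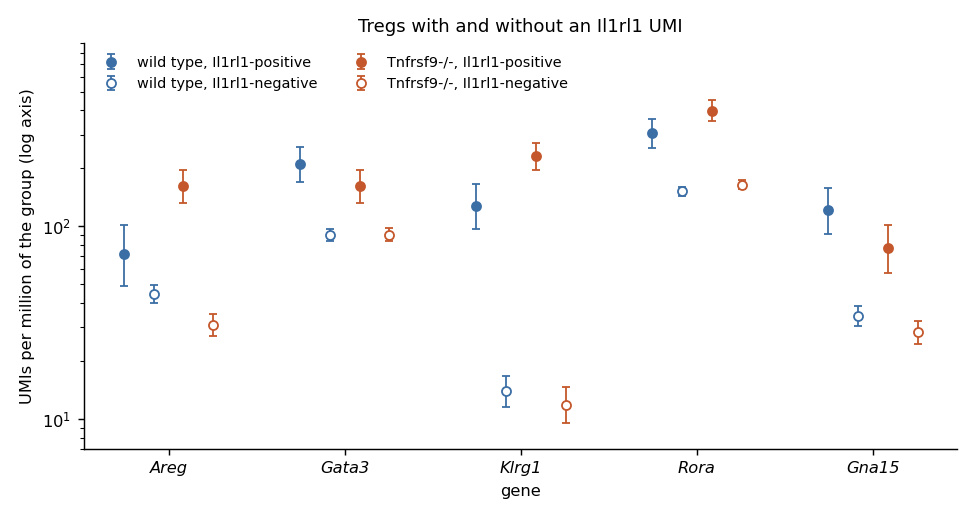
CPM (log axis) of the 5 other genes in Tregs with an Il1rl1 UMI (filled) and without (open), in the wild-type (blue) and Tnfrsf9-/- (orange) library, with 95% exact Poisson intervals. Klrg1 has the widest gap in both libraries (128 against 14.0 and 231 against 11.9 CPM), and Areg has a wide gap in Tnfrsf9-/- Tregs.

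The genotype difference of Areg and Klrg1 depended on which Tregs were read. In Il1rl1-positive Tregs Areg was 2.25-fold higher in the knockout (1.501 to 3.45, 32 against 105 UMIs), and in Il1rl1-negative Tregs it stood at 0.689 (0.583 to 0.814, 377 against 231 UMIs). In the Il1rl1-positive groups the 2 highest cells held 16 of the 32 and 43 of the 105 UMIs. By cells, Areg was found in 11 of 76 wild-type (14.5%, 7.45 to 24.4) and 26 of 107 Tnfrsf9-/- Tregs (24.3%, 16.5 to 33.5), and these intervals overlap. The directions stayed opposite without the 2 highest cells of each group (2.65 and 0.702) and without cycling cells (1.71 and 0.523). Klrg1 stood at 1.80 (1.32 to 2.49) in Il1rl1-positive and at 0.849 (0.637 to 1.13) in Il1rl1-negative Tregs. For Gna15 the ratio was 0.635 (0.423 to 0.95) in Il1rl1-positive Tregs, for Gata3 0.766 (0.574 to 1.02) and for Rora 1.31 (1.06 to 1.63). Cycling cells made up 7.89% of Il1rl1-positive wild-type and 23.4% of Il1rl1-positive Tnfrsf9-/- Tregs, against 13.5% and 14.96% of the Il1rl1-negative Tregs.

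In single Tregs, each of the 5 genes was found together with Il1rl1 more often than the product of their shares gave within 10 bins of depth. Il1rl1 and Klrg1 were found together in 17 wild-type Tregs where 4.13 were expected, 4.12 times as many, and in 32 Tnfrsf9-/- Tregs where 5.91 were expected, 5.42 times as many. Gna15 was the next partner, at 2.87 and 2.02 times. Gata3 stood at 1.69 and 1.46 times, Rora at 1.36 and 1.45 times, and Areg at 1.25 and 2.43 times. For Areg the wild-type count was 11 Tregs where 8.82 were expected, and 3 where 2.48 were expected in thinned cells. Such counts are too small to tell this excess from counting error. In the knockout Areg was found with Il1rl1 in 26 Tregs where 10.7 were expected. The 10 pairs without Il1rl1 had medians of 1.15 and 1.30, and the 5 pairs with Il1rl1 had medians of 1.69 and 2.02. Among the others Areg with Klrg1 was the highest, at 1.98 and 2.23 times, and Areg with Gata3 lay near 1 in both libraries (1.06 and 0.992). At least 3 of the 6 genes had a UMI in 11.2% and 11.1% of Tregs, against 2.81% and 2% of the deeper CD8 T cells. Cells with all 6 were rare, 2 wild-type and 5 Tnfrsf9-/- Tregs. These are descriptions of cells from 2 libraries, which share depth and are not replicates, for genes chosen with earlier results of these data known.

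**Figure D4:**
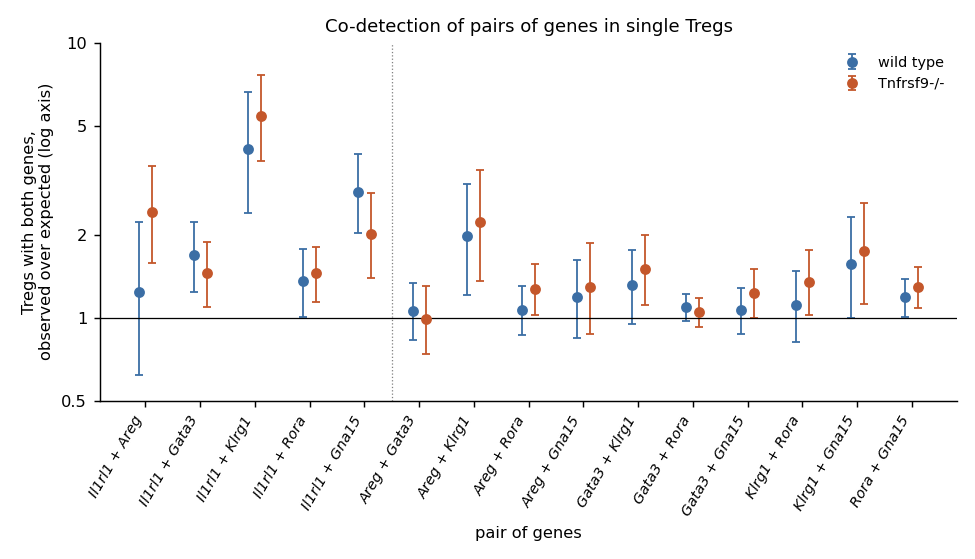
Tregs in which both genes of a pair were found, observed over expected within bins of depth (log axis), for the 15 pairs of the 6 genes in the wild-type (blue) and Tnfrsf9-/- (orange) library, with 95% intervals of the observed count. The 5 pairs with Il1rl1 are left of the dotted line, and the pair with Klrg1 is highest at 4.12 and 5.42.

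The genes most like Il1rl1 were those with the highest lower ratio of Il1rl1-positive over Il1rl1-negative Tregs in the 2 libraries, among 2463 genes with at least 30 UMIs in the positive cells of each. This minimum was set in the positive cells alone, so a rare gene such as Klrg1, Gna15 or Areg could enter only where it was high there, and the order is a description of those 2463 genes. Klrg1 led it, Gna15, Rora and Gata3 were among the highest 12, and Areg had rank 30. Lgmn, a lysosomal protease, stood at 4.65 and 4.28 times, and Il7r, the IL-7 receptor, at 2.49 and 2.89 times. They were followed by Zfp36, which encodes a protein that destabilises mRNA (2.49 and 2.37 times), S100a4 (2.30 and 2.08 times) and Rgs1, a regulator of G protein signaling (2.25 and 2.01 times). Dgat1, Nck2, Sytl1, Psen2 and 4930453N24Rik completed the 10 genes outside the 6, at 1.78 to 1.92 times in the wild type and 1.745 to 2.28 times in the other library.

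The other genes of the members' pathways are read against the 2.44% of all tested genes called higher in Il1rl1-positive Tregs and the 1.81% called lower, with a median log2 difference of -0.03. In these Tregs, 2 of the 14 tested genes of IL-33 receptor signaling were called higher, Nfkb1 (log2 0.40) and Irak2 (0.70), with a list median of 0.06. Both lost the call without the block, in thinned cells and without cycling cells, although their log2 differences stayed at 0.398 to 0.406 for Nfkb1 and at 0.43 to 0.71 for Irak2. The coreceptor Il1rap, which ST2 needs to signal, did not pass (log2 -0.21, SE 0.363, adjusted p = 0.879, edgeR). Of 6 tested type 2 cytokine and signaling genes, Il9r was called higher (log2 3.79, adjusted p = 1.08e-05, edgeR), at 9.001 against 1.78 CPM and 26.2 against 0.800 CPM, a call lost in thinned cells (log2 3.28, adjusted p = 0.131, edgeR). Of the 20 genes of the tissue Treg program 4 were higher, Nrp1 (0.76), Fgl2 (0.77), Cd44 (0.53) and Ccr4 (1.01), and Penk was lower (-1.13), with a list median of 0.34. Of these 5 genes only Nrp1 kept the call in thinned cells, and without the block it stood at 0.77 (adjusted p = 0.0635, edgeR). No gene was called among 3 tested of the EGF family, 2 of the Gq class, 1 of the KLRG1 partners and 1 of the ROR family. Lag3, an inhibitory receptor of suppressive Tregs that was singled out after its values were seen, was lower in Il1rl1-positive Tregs, at 243 against 658 CPM and 170 against 440 CPM (log2 -1.42, adjusted p = 3.37e-34, edgeR). The other suppressive markers did not pass, Itgae at log2 0.32 (adjusted p = 0.127, edgeR) and Cxcr6 at -0.27 (adjusted p = 0.643, edgeR), and Ctla4, another inhibitory receptor of Tregs, was higher by 0.27 (adjusted p = 0.000743, edgeR). The Ctla4 call was lost without the block (adjusted p = 0.605, edgeR), in thinned cells (adjusted p = 0.746, edgeR) and without cycling cells (adjusted p = 0.298, edgeR).

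Between the genotypes, none of the 14 tested genes of IL-33 receptor signaling, 4 of the EGF family, 6 of type 2 signaling and 20 of the tissue Treg program was past 1.5-fold in Tregs, where 6.93% of all genes were past it upward and 3.62% downward, and their medians lay between log2 -0.04 and 0.09 against 0.04 for all genes. Gna14, a relative of Gna15, was the only list gene past it, with 18 and 27 UMIs and a ratio of 1.64 (0.868 to 3.15). In CD8 T cells, where 13.7% of all genes were past 1.5-fold upward and 8.2% downward, the lists held Irak2 at 1.71 (1 of 13 IL-33 receptor signaling genes), Egf at 1.77 (1 of 3 EGF family genes) and Il4ra at 1.67 (1 of 5 type 2 genes). Of 17 tested tissue Treg program genes 5 were past it upward, Irf4, Ccr8, Itgae, Fgl2 and Furin at 1.51 to 1.77. Egf and Ccr8 among them had 10 and 9 wild-type UMIs and intervals that hold 1. Another 4 of the 17, Batf, Nfil3, Il10 and Penk, were past it downward, with Penk at 0.209 (0.153 to 0.282).

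State markers divided the Tregs further, each cell thinned to 2000 UMIs. Areg went with Tnfrsf9 itself: in wild-type Tregs with a Tnfrsf9 UMI it stood at 82.3 CPM against 39.1 CPM in the others, a ratio of 2.10 (1.52 to 2.91), and in Tnfrsf9-/- Tregs at 95.2 against 28.1 CPM, a ratio of 3.39 (2.26 to 5.05). It was also higher in cells with a UMI of the suppressive markers Lag3, Itgae or Cxcr6, by 1.67 (1.19 to 2.37) and 1.52 (1.03 to 2.26), and in cells with at least 2 UMIs of the interferon-induced Isg15, Ifit1, Ifit3 and Irf7, by 1.97 (1.15 to 3.19) and 3.53 (1.76 to 6.46). The interferon ratios rest on 19 Areg UMIs in 96 wild-type cells and 12 Areg UMIs in 47 Tnfrsf9-/- cells. Areg had a UMI in 8.33% of those wild-type cells against 6.59% of the others, and in 8.51% against 4.40% in the knockout. The intervals do not cover the spread between cells, and the part of single high cells was not tested. For Rora the ratio was 0.526 (0.331 to 0.798) and 0.683 (0.456 to 0.987) in cycling Tregs. These directions were shared by both libraries.

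Other state ratios lay further apart in the libraries, though not all beyond their intervals. Il1rl1 was lower in Tregs of the suppressive markers in the wild type, at 0.380 (0.187 to 0.732), and its ratio was 1.23 (0.771 to 1.94) in the knockout. Klrg1 stood at 1.09 (0.640 to 1.88) in wild-type Tregs of the suppressive markers, and at 4.298 (2.56 to 7.51) in Tnfrsf9-/- Tregs of those markers. Rora gave 1.07 (0.903 to 1.27) in the wild type and 1.57 (1.32 to 1.87) in the knockout. Gna15 gave 1.09 (0.742 to 1.59) and 1.68 (1.07 to 2.65), with overlapping intervals. In Tregs with an activation marker (Cd83, Tbc1d4 or Nt5e) Il1rl1 stood at 0.836 (0.412 to 1.61) in the wild type and at 0.498 (0.274 to 0.861) in the other library, again with overlapping intervals. Gata3 lay between 0.704 and 0.971 over the 5 states and both libraries. None of these differences between libraries was tested.

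**Figure D5:**
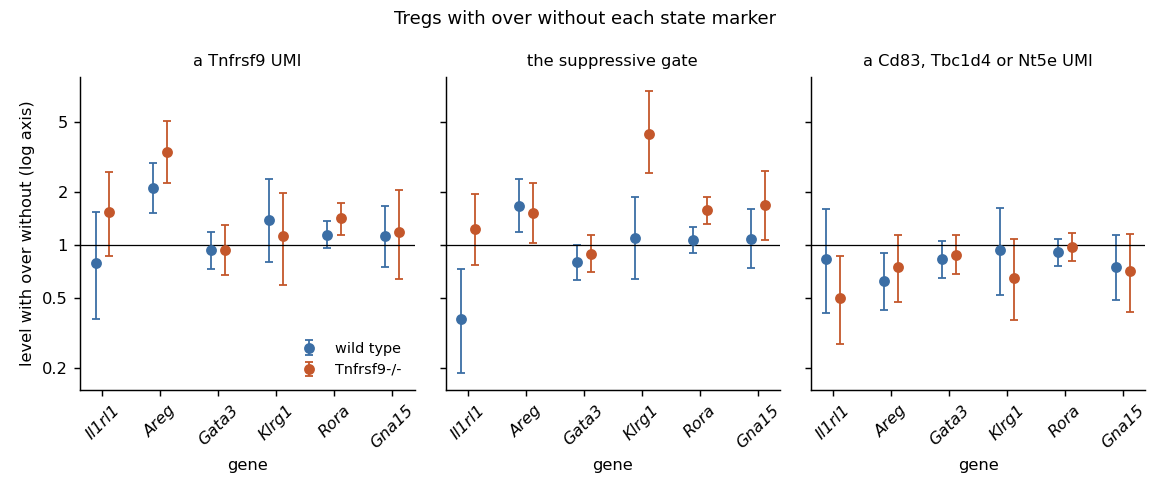
Level of each gene in Tregs with over without a state marker (log axis), for a Tnfrsf9 UMI, the suppressive markers Lag3, Itgae or Cxcr6, and the activation markers Cd83, Tbc1d4 or Nt5e, in the wild-type (blue) and Tnfrsf9-/- (orange) library, with 95% exact conditional intervals in cells thinned to 2000 UMIs. Areg is above 1 with Tnfrsf9 in both libraries (2.10 and 3.39), and Klrg1 with the suppressive markers is at 1.09 in the first library and 4.298 in the second.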

How the data were processed

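Single-cell 3′ RNA libraries (10x Genomics version 2) of islet CD8 T cells and GFP+ Tregs were analysed, 1 per genotype. The authors deposited raw UMI counts per gene and barcode, made with Cell Ranger 7.0.0 on mm10 according to the submitters' processing notes. Whether intronic reads were counted is not given in the sources used here, and no doublet caller was run. The members and lists were chosen with earlier results of these data known.

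Cells were filtered and classed by the UMI rules given above, and UMIs were summed per library and class. Shares have Clopper-Pearson, levels exact Poisson, ratios exact conditional and differences of shares Newcombe intervals, all at 95%. PCR copies were collapsed by UMI, and intervals and floors (3 counts) cover counting error only. Ratios across genes used genes with at least 20 UMIs. Thinning to 2000 UMIs used seed 20. edgeR 4.0.16 (quasi-likelihood, TMM, filterByExpr, library as block) was run in R 4.3.3 on the 4 sums, with DESeq2 1.42.0 as an alternative. The block is the pool of mice a sum came from, so no check of replicate numbers applies. Other steps used Python 3.11.15, numpy 2.4.6 and scipy 1.17.1. The ratio was run on simulated Poisson counts, the model its interval assumes, and edgeR on simulated class sums. Those runs cover neither the spread between cells nor the Il1rl1 comparison. Named genes were the 6 members, list genes past 1.5-fold or called beside Il1rl1, the 10 genes most like Il1rl1, and Tnfrsf9. Alternatives covered scaling, filters, the Treg rule, depth, cycling cells, dominant cells and the block. Results that need a certain marker gene, among them the setting that leaves out cells with it, are not reported here.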

Additional observations from a re-analysis of the deposited data

Results flagged for a closer look

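The genotype ratio of Areg took opposite directions in 2 groups of Tregs, 2.25 in cells with an Il1rl1 UMI and 0.689 in cells without, each with an interval that leaves out 1. Klrg1 likewise stood at 1.49 in Tregs and at 0.0582 in CD8 T cells. Neither difference was tested, since each genotype has 1 library. In cells with an Il1rl1 UMI, the intervals of the shares with an Areg UMI (14.5% and 24.3%) overlapped.

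The comparisons left out 271 cells of each library that met neither class rule, and each of the 6 genes was found there above the level that 3 UMIs would give (1.62 CPM in the wild type and 1.72 CPM in the knockout). Il1rl1 stood at 10.8 CPM in the wild type and 8.58 CPM in the knockout, Areg at 36.3 and 18.3 CPM, Gata3 at 100.2 and 62.4 CPM, Klrg1 at 18.4 and 17.7 CPM, Rora at 128 and 132 CPM, and Gna15 at 33.0 and 34.3 CPM.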

How the results depend on the processing

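Each genotype ratio rests on 1 library per genotype, and Il1rl1 (124 and 219 UMIs in Tregs) and Klrg1 limit what depth can show. In cells thinned to 2000 UMIs the wild-type and Tnfrsf9-/- shares of Tregs were 2.51% and 3.89% for Il1rl1, 6.71% and 4.54% for Areg, 18.4% and 16.8% for Gata3, 2.85% and 3.17% for Klrg1, 28.0% and 27.0% for Rora, and 7.05% and 5.33% for Gna15. Under the Foxp3 rule they were 7.32% and 11.0% for Il1rl1, 39.5% and 39.5% for Gata3, 56.6% and 52.7% for Rora, 24.9% and 15.7% for Gna15, and 13.7% for wild-type Areg. The Treg ratio of Areg moved to 0.705 (Foxp3 rule), 0.650 (without cycling cells) and 0.753 (equal weight), that of Klrg1 to 1.11 and 1.13 in the last 2, that of Rora to 1.32 (Foxp3 rule), and that of Gna15 to 0.642 (Foxp3 rule). In CD8 T cells Rora moved to 0.895 without cycling cells and 0.930 at equal weight. With no filter on low counts, 3020 and 2453 genes were past 1.5-fold in Tregs and 4212 and 2584 in CD8 T cells. Scaling by TMM or the median of ratios shifted all log2 ratios by about -0.04 and left every member on its side of 1.5-fold.

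Between Tregs and CD8 T cells, Klrg1 and Gna15 lost the call in DESeq2 (log2 3.30 and 0.63) and without the replicate block (2.31 and 0.65). The counts of genes higher and lower were 634 and 493 in DESeq2 and 681 and 503 without the block, against 1322 and 961. Read in 1 library alone, with no test, the log2 differences were 5.35 to 6.33 for Areg, 1.595 to 1.60 for Gata3, 1.18 to 5.86 for Klrg1, 0.90 to 1.02 for Rora and 0.61 to 0.92 for Gna15. Between Il1rl1-positive and Il1rl1-negative Tregs, Areg and Gna15 lost the call in thinned cells (log2 1.08 and 1.60), and the block changed no member's call. Against 256 genes higher and 190 lower, 157 were higher with no filter, 72 and 46 passed in DESeq2, 29 and 11 without the block, 42 and 96 in thinned cells, and 92 and 79 without cycling cells. DESeq2 gave no adjusted p for Areg, Klrg1 and Gna15. In 1 library alone the log2 differences were 0.69 to 2.40 for Areg, 0.84 to 1.22 for Gata3, 3.20 to 4.29 for Klrg1, 0.996 to 1.28 for Rora and 1.45 to 1.83 for Gna15. Without the 2 highest cells of each group the Areg ratio was 0.909 in the wild type, with an interval that holds 1, and 3.43 in the knockout, a choice that takes more from the smaller positive group, and without cycling cells the genotype ratio of Areg in Il1rl1-negative Tregs was 0.523. Thinning moved the co-detection of Klrg1 in the knockout to 8.77 and that of Rora to 2.41 and 1.92. The causes were not tested.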
